A study of Mus musculus with 7 samples.

Results

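Cluster 5 is a group of CD11b+ enriched myeloid cells from a mouse Lewis lung carcinoma, taken as the cells that the depositors' own clustering numbered 5, that came from the tumor tissue library and that have a column in the RNA count table. These were 312 of the 1917 counted tumor tissue cells, a share of 16.3% (exact Clopper-Pearson 95% interval 14.7% to 18.0%), and 312 of the 4290 counted cells of the whole study. The label names Cxcl9, Gbp2 and Ptgs2, and 8 marker genes came with it. All 8 were present, but each had a higher level in at least 1 other tumor tissue cluster, so the cells are called cluster 5 here. The share depends on the CD11b enrichment and on the cell filters, and cannot be read as a share of the tumor.

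The study profiled myeloid cells by CITE-seq, in which each cell gives counts of messenger RNA molecules (unique molecular identifiers, UMIs) and of oligonucleotide tags carried by bound antibodies. The cells came from C57/Bl6 mice, either naive or carrying an LLC tumor at day 14, and were enriched for CD11b, an integrin of myeloid cells, with magnetic beads. LLC is a transplantable carcinoma line of C57BL/6 origin. There were 7 libraries: 1 of the tumor tissue, and 1 each of blood, spleen and bone marrow from mice with a tumor and from naive mice. All were prepared with 10x Genomics 3′ chemistry. The number of animals behind a library, their ages and any pooling were not given in the sources used here. With 1 library per group no p-value is possible, and the clusters were drawn from the same RNA counts. All values below are therefore descriptions of 1 tumor library, and the 95% intervals cover counting error only.

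Monocytes that leave the blood and enter a tumor change their gene expression with the signals they meet. Interferon-gamma, released by T and NK cells, induces guanylate-binding proteins, antigen presentation genes and the chemokines CXCL9, CXCL10 and CXCL11, which draw T cells through the receptor CXCR3. Low oxygen acts through hypoxia-inducible factors on glycolysis and lipid storage genes, and inflammatory signals through NF-κB induce cyclooxygenase 2, the enzyme that starts prostaglandin synthesis. Tumor macrophages, a later stage of many of these cells, are known for complement C1q, Apoe, Trem2 and Mrc1.

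Cells of cluster 5 had a median of 8231.5 UMIs and 2231.5 genes, close to the medians of clusters 3, 7, 9 and 10 (8288 to 8782 UMIs). Cluster 11 stood apart with a median of 29673 UMIs, so that its 134 cells supplied 23.2% of the UMIs of the other tumor tissue cells. Values against all other tumor tissue cells are for that reason also given without cluster 11 where it matters. The other 6 libraries, with 57 to 814 counted cells, held 0 cells of cluster 5, which allows, at 3 counts of the total, a share of up to 0.369% in naive blood and up to 5.26% in the tumor-bearing marrow. No barcode of cluster 5 was shared with another library. Under the depositors' coarser clustering at resolution 0.5, 307 of the 313 cluster 5 cells listed in the metadata fell into 1 cluster of 700 tumor tissue cells. That cluster also held 198 cells of cluster 10, 143 of cluster 8 and 51 of cluster 17, and none of cluster 7.

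The identity of the cells as myeloid cells was checked with markers of other cell types, which cannot show a monocyte origin. The 10 T and NK cell genes of the list found in the file, Cd3d, Cd3e and Cd3g among them, summed to 0 UMIs in cluster 5, which allows up to 3 UMIs in its total. The 5 red cell genes were also at 0, and the carcinoma list summed to 6.73 UMIs per 1000000 (CPM), against 4.05 to 26.2 CPM in the other tumor clusters. The B cell list summed to 57.8 CPM (23.5 to 111 in the others) and the dendritic cell list to 38.8 CPM (18.1 to 656). The stromal list was at 15.0 CPM (6.54 to 16.2) and the endothelial list at 12.7 CPM (2.85 to 17.4). Myeloid genes were high, with the lysozyme gene Lyz2 at 6649 CPM, Tyrobp, a signalling adaptor of myeloid receptors, at 3908 CPM and the CSF1 receptor gene Csf1r at 508 CPM. None of the 10 measured myeloid identity genes differed by 2-fold from the other tumor tissue cells (median log2 ratio 0.10). The neutrophil list is described with S100a8 and S100a9 below.

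The 8 markers split by which other cluster surpassed cluster 5. Gbp2, Cxcl9 and Ccrl2 were highest in cluster 10, whereas Slpi, Ptgs2, Hilpda, Clec4e and Smox were highest in cluster 7, and cluster 5 ranked 2nd or 3rd of 8 clusters for every one of them. Gbp2 (chr3:142620602-142638008, plus strand, GRCm38) encodes a guanylate-binding protein that interferon-gamma induces and that acts in defence against intracellular microbes. Its level was 749 CPM in cluster 5, 1625 in cluster 10, 488 in cluster 17, 475 in cluster 8, 129 in cluster 11, 70.2 in cluster 7, 59.3 in cluster 9 and 42.0 in cluster 3. Cluster 5 thus stood well above clusters 3, 7, 9 and 11 and below cluster 10. Cxcl9 (chr5:92321347-92328079, minus strand) encodes a CXCR3 ligand. Its level was 371 CPM in cluster 5, 885 in cluster 10, 460 in cluster 17, 341 in cluster 8, 80.8 in cluster 11, 14.6 in cluster 3, 10.1 in cluster 7 and 5.135 in cluster 9. Ccrl2 (chr9:111054486-111057519, minus strand), a non-signalling receptor that presents the attractant chemerin, was at 569 CPM in cluster 5, below 650.1 in cluster 10 and above 149 to 465 in the other 6 clusters.

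Slpi (chr2:164354070-164389095, minus strand) encodes secretory leukocyte protease inhibitor, which blocks neutrophil elastase. It stood at 1439.5 CPM in cluster 5, 2220.3 in cluster 7, 841 in cluster 10, 528 in cluster 9, 349.6 in cluster 3, 291 in cluster 8, 234 in cluster 11 and 3.27 in cluster 17. Clusters 7 and 5 were the highest, and cluster 8, which was near cluster 5 for Gbp2 and Cxcl9, was among the low ones. Ptgs2 (chr1:150100031-150108227, plus strand), the gene of cyclooxygenase 2, was at 343 CPM in cluster 5, 449.6 in cluster 7, 216 in cluster 10, 202 in cluster 3, 188 in cluster 8, 132 in cluster 11, 57.3 in cluster 17 and 50.2 in cluster 9. Hilpda (chr6:29272488-29275446, plus strand), a hypoxia-induced inhibitor of the lipid droplet lipase ATGL, was at 417 CPM against 529 in cluster 7 and 34.8 to 278 elsewhere. Clec4e (chr6:123281789-123289870, minus strand) encodes Mincle, a lectin that senses mycobacterial glycolipid and dying cells, and was at 657 CPM against 766 in cluster 7 and 65.4 to 479.9 elsewhere. Smox (chr2:131491496-131525922, plus strand), spermine oxidase, differed little among its 3 highest clusters, at 551 CPM in cluster 7, 549 in cluster 10 and 530.0 in cluster 5, against 115 to 219 in the other 5.

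**Figure D1:**
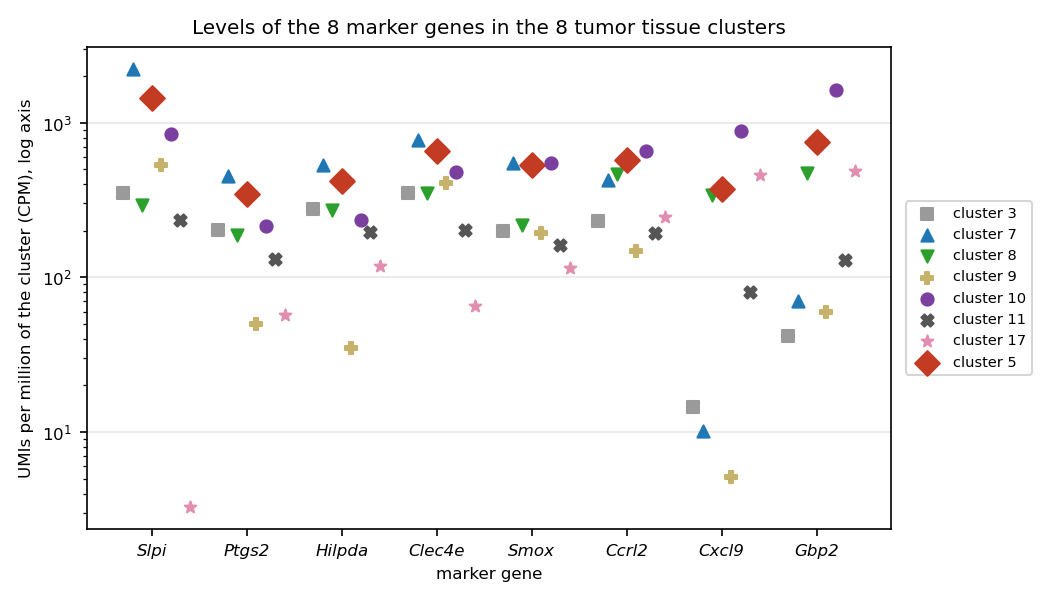
Levels of the 8 marker genes (UMIs per 1000000 of the cluster, log axis) in the 8 tumor tissue clusters of at least 50 cells, 1 point per cluster with cluster 5 as the large red diamond. Cluster 10 lies above cluster 5 for Gbp2 (1625 against 749 CPM) and cluster 7 lies above it for Slpi (2220.3 against 1439.5 CPM).

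For Ptgs2, Hilpda, Cxcl9 and Slpi, the tumor tissue library had the highest level of the 7 libraries. Library levels of the other markers are not given here. Over whole libraries, Ptgs2 was at 215 CPM in tumor tissue and at 0 to 0.649 CPM in the other 6 libraries, and Hilpda at 276 CPM against 1.62 to 5.97 CPM. Cxcl9 was at 204 CPM against 3.095 to 29.1 CPM. Slpi differed least, at 707 CPM against 205.5 to 471 CPM.

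The bases upstream of the RefSeq starts of Cxcl9, Gbp2 and Slpi are shown because these 3 markers passed a 2-fold difference from the other tumor tissue cells. They come from the RefSeq table of build GRCm38.p6 and are written 5′ to 3′ along the gene's strand. Capitals mark motif matches found on either strand: in Gbp2 the letters of an AP-1 site (TGANTCA) and, further on, of an interferon-stimulated response element core (GAAA and GAAA with 2 free bases between, here on the other strand), and in Slpi the core of a hypoxia response element (ACGTG, overlapping on both strands). The windows are chr5:92328080-92328329 (minus strand) for Cxcl9, chr3:142620413-142620613 (plus strand) for Gbp2 and chr2:164356508-164356757 (minus strand) for Slpi.
Cxcl9: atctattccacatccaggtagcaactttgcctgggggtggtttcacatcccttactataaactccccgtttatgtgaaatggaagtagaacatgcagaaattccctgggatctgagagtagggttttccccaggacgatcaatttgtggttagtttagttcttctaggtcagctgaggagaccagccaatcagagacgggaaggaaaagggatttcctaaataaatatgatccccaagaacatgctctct
Gbp2: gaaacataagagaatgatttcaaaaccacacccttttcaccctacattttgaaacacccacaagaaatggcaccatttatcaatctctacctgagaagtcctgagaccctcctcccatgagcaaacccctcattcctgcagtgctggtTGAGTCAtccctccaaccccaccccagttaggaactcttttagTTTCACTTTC
Slpi: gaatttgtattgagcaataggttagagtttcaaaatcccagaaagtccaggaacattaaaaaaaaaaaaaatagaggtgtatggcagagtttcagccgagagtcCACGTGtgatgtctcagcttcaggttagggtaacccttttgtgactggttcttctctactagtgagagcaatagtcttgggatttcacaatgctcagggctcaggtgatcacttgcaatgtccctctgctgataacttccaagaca
The printed Gbp2 stretch holds the first 201 of the 250 bases searched. The GENCODE start of Gbp2, given above, lies inside it, before the response element match, and the Slpi window lies inside the longer GENCODE extent of Slpi. The Gbp2 matches lay at bases -102 to -96 and -59 to -50, counted from the RefSeq start, and the Slpi match at bases -146 to -141. Over the 250 bases before the start, the response element core was in 1 of the 8 markers and in 2.98% of all 32851 RefSeq promoters, the AP-1 letters in 1 of 8 and 6.75%, and ACGTG in 3 of 8 (Ccrl2, Slpi and Clec4e) and 16.6%. The gamma-activated sequence TTCNNNGAA (7.02% of promoters), both NF-κB forms, GGG and TTTCC with 2 free bases between (1.41%) and GGGA and TTCCC with 1 (0.32%), and the C/EBP letters TTGCNNCAA (1.74%) were found in 0 of the 8. These counts describe letters in a short window and say nothing about factor binding.

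Against the other tumor tissue cells, cluster 5 had few high genes and many low ones. Of the 8 markers, 3 were higher by 2-fold or more: Gbp2 2.45-fold (95% interval 2.325 to 2.58), Slpi 2.38-fold (2.29 to 2.47) and Cxcl9 2.05-fold (1.91 to 2.21). Over all 5092 measured genes, 15 (0.295%) were higher and 224 (4.4%) lower by 2-fold or more. Genes counted as measured if they had at least 30 UMIs in both sums together and 20 CPM in 1 of them. The remaining markers were 1.63-fold (Hilpda) to 1.975-fold (Smox) higher. Since the clustering used these genes, the excess of the markers is not a finding. Without cluster 11 the counts were 9 higher and 116 lower, Cxcl9 was at 1.76-fold and Plac8 at 1.94-fold. The cell with the most Cxcl9 held 160 of the 937 Cxcl9 UMIs, and without the top cell of each side the ratio was 1.78.

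The other high genes came from several functions. Plac8, a gene of classical monocytes, was at 5308 against 2262.5 CPM (2.35-fold, 2.30 to 2.39). Tnfaip6, whose secreted product binds hyaluronan, was at 48.3 against 18.7 CPM (2.58-fold, 2.08 to 3.18), and at 45.15 CPM in cluster 10 and 41.1 in cluster 9 it was scarcely lower than in cluster 5. Slamf8, a receptor of macrophages, was at 110 against 48.4 CPM (2.27-fold, 1.97 to 2.60). Arg2, the mitochondrial arginase, was 2.20-fold higher (1.885 to 2.56) and Inhba, the activin A subunit, 2.51-fold (2.015 to 3.11), with 30.2% of the Inhba UMIs in 1 cell. Ly6i, a Ly6 family gene, was at 25.3 against 10.3 CPM, Slfn8, a Schlafen family gene, at 173 against 82.3 CPM. Of the 15 genes, S100a9 and Tnfaip6 kept a ratio of 2-fold or more under all 11 alternative settings, although Tnfaip6 missed the level asked for by the higher minimum. Gbp2 and Slamf8 fell short under 1 of them, when the other clusters were weighted equally (1.815-fold and 1.65-fold). Inhba and S100a8 also fell short under 1 each, Inhba with 10 CPM added to both sides (1.98-fold) and S100a8 without the top cell of each side (1.99-fold).

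S100a8 and S100a9, which encode the 2 chains of calprotectin, were also higher, but rested on few cells. S100a8 was at 281 CPM in cluster 5 against 102 in the other cells (2.75-fold, 2.516 to 2.996), and S100a9 at 330.5 against 130 (2.54-fold, 2.34 to 2.745). One cell held 253 of the 710 S100a8 UMIs (35.6%) and 1 cell 289 of the 835 S100a9 UMIs (34.6%), and without the top cell of each side the ratios were 1.99 and 2.01. With every cell thinned to 3000 UMIs, S100a8 was found in 20 of 299 cells (6.69%, 4.13% to 10.1%), against 1.82% to 5.97% in the other clusters. S100a9 was found in 14 of 299 cells (4.68%, 2.58% to 7.73%), against 1.02% to 5.40% in the other clusters. Clusters 7 (5.40%), 11 (5.22%) and 8 (5.08%) lay above cluster 5 for S100a9. The listed neutrophil genes summed to 753 CPM in cluster 5 and to 29.5 to 475 CPM in the other clusters. Of its 4 measured genes 2 were higher by 2-fold and all 4 lay above 0 (median log2 ratio 0.93), with the collagenase gene Mmp8 at 1.44-fold and the G-CSF receptor gene Csf3r at 1.43-fold. The granule genes Ngp, Camp and Elane were at 0 UMIs in cluster 5, Ltf and Ly6g at 1 UMI each. The part of neutrophil RNA in the S100a8 and S100a9 values was not tested.

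**Figure D2:**
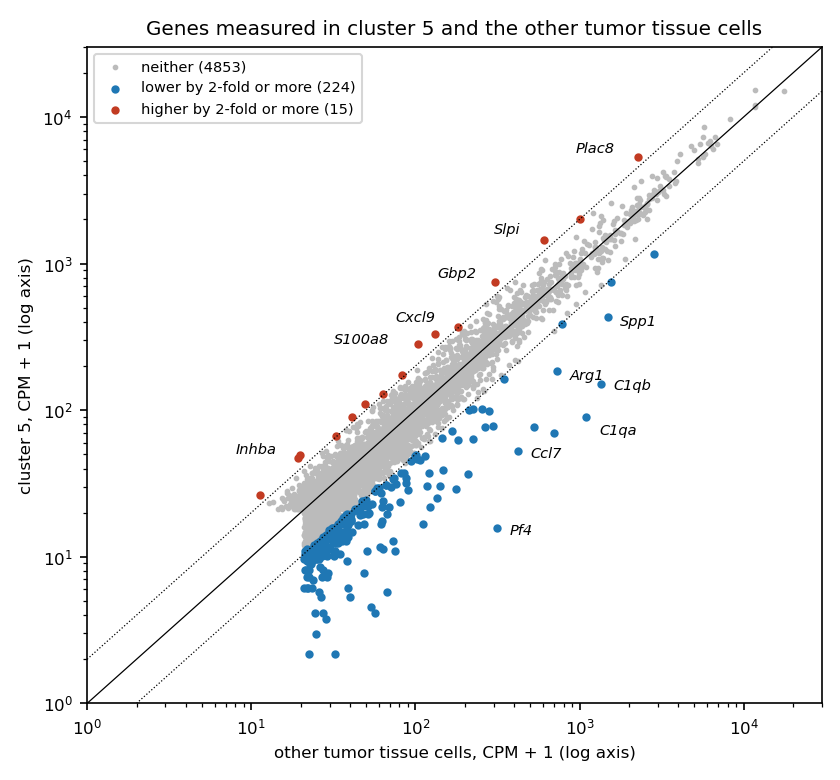
Level of each of the 5092 measured genes in cluster 5 (vertical, CPM + 1, log axis) against the other tumor tissue cells (horizontal, CPM + 1, log axis), with dotted lines at 2-fold. The 224 blue points below the lower line include C1qa, Pf4, Ccl7, Arg1 and Spp1, and the 15 red points above the upper line include Gbp2, Slpi, Cxcl9 and Plac8.

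The low genes were led by those of tumor macrophages. Of 13 measured genes on that list, 10 were lower by 2-fold or more and none higher, with a median log2 ratio of -1.98 beside -0.12 over all measured genes. The complement subunit C1qa was at 89.45 CPM in cluster 5, 3080.1 in cluster 11, 1138 in cluster 8, 669.5 in cluster 3, 113.5 in cluster 10, 89.97 in cluster 17, 75.3 in cluster 7 and 53.6 in cluster 9. Against the other tumor tissue cells together it was 12.3-fold lower (10.8 to 14.1), and 5.64-fold lower without cluster 11. C1qb and C1qc were also low, 9.05-fold (8.17 to 10.0) and 10.2-fold (8.75 to 11.9) lower, and 4.815-fold and 4.86-fold lower without cluster 11. Trem2, a lipid-sensing receptor, was 3.83-fold lower (3.32 to 4.44), Mrc1, the mannose receptor, 5.84-fold (4.45 to 7.82; 2.59-fold without cluster 11) and the lipid carrier Apoe 2.45-fold (2.36 to 2.54). Spp1, osteopontin, was at 429.8 against 1479.5 CPM (3.44-fold lower, 3.24 to 3.66). Spp1, C1qa, Trem2 and Mrc1 were lower by 2-fold or more under all 11 alternatives, while Apoe lost that under 3.

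Among the lowest ratios were further genes, some of them known from resident macrophages. Pf4, platelet factor 4, which macrophages also express, was at 14.6 against 315 CPM (21.5-fold lower, 15.6 to 30.6) and 10.7-fold lower without cluster 11. Folr2, a folate receptor, was 13.9-fold lower (7.93 to 27.0) and Fcrls 17.6-fold (8.89 to 40.8), but without cluster 11 they were 4.26-fold and 3.21-fold lower. Pmp22 and Htra3 had 3 UMIs each in cluster 5 (26.6-fold lower, 9.05 to 129, and 18.1-fold lower, 6.14 to 88.0), and were 6.88-fold and 11.85-fold lower without cluster 11. Ltc4s, leukotriene C4 synthase, was at 3.56 against 52.35 CPM (14.7-fold lower, 7.71 to 32.2; 6.78-fold without cluster 11).

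Classical monocyte genes were on the high side. Of 10 measured, 3 were higher and 1 lower by 2-fold or more, with a median log2 ratio of 0.62. Plac8 and Chil3 were among the higher ones, and Chil3, which encodes a chitinase-like protein, was at 2019 against 1003 CPM (2.01-fold), a ratio that was under 2 with 7 of 11 alternatives. Ly6c2, the gene of the Ly-6C antigen, was 1.84-fold higher (1.79 to 1.895) and within counting error of cluster 8 (2223 against 2210.4 CPM) but above cluster 7 (843 CPM). Fn1, fibronectin, was the lower member (2.09-fold, 1.998 to 2.195), at 1.76-fold without cluster 11. Cx3cr1, the fractalkine receptor, was 3.33-fold lower (2.70 to 4.15).

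Interferon-regulated genes were on balance somewhat higher than in the other tumor tissue cells, with a wide spread among the clusters. Of 11 measured interferon-inducible GTPases, 1 (Gbp2) was higher by 2-fold and none lower. Of the 11, 10 lay above 0, with a median log2 ratio of 0.64 beside -0.12 over all measured genes. Gbp9 (1.97-fold, 1.65 to 2.35), Gbp4 (1.915-fold, 1.56 to 2.335) and Ifi47 (1.65-fold, 1.53 to 1.77) were the next members. The exception was Iigp1, at 13.5 against 25.2 CPM. Of the 12 measured genes of interferon-gamma signalling, none passed 2-fold in either direction (median 0.48), with Jak2 at 1.92-fold (1.67 to 2.21). Of the 24 measured type I interferon genes, none passed 2-fold in either direction (median 0.43), with Zbp1, a sensor of unusual nucleic acid, at 1.915-fold (1.81 to 2.03). The 18 measured MHC class I presentation genes had 0 beyond 2-fold and a median of 0.48, and Tap1, a subunit of the peptide transporter, was 1.57-fold higher (1.46 to 1.69).

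MHC class II genes went the other way in this pooled comparison, whose other cells include cluster 17. The median log2 ratio over 6 measured genes was -0.49, and 1 of them, H2-Eb1, was lower by 2-fold (388 against 782 CPM; 2.02-fold). That gene was under 2-fold with 5 of 11 alternatives, 1.985-fold without cluster 11. H2-Aa was at 635 CPM in cluster 5, 7664 in cluster 17, 1126 in cluster 11, 1095 in cluster 8, 906 in cluster 3, 723 in cluster 10, 589 in cluster 9 and 212 in cluster 7. Cluster 5 was thus 6th of 8 for H2-Aa while it was 2nd for Gbp2. The summed list stood at 42142 CPM in cluster 17, 4936 in cluster 5 and 2013 to 6845 in the other clusters. The median thinned cell held 3 UMIs of the list in clusters 5 and 3 and 2 in clusters 7, 9 and 10. It held 4 in cluster 8, 6 in cluster 11 and 124 in cluster 17. The ratios without cluster 17 were not computed.

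Chemokine genes did not move as 1 group. Of 5 measured T-cell-attracting chemokines, Cxcl9 was higher and Cxcl11 lower by 2-fold (12.7 against 33.96 CPM; 2.68-fold lower, 1.88 to 3.95). Cxcl10 was at 1222 CPM in cluster 5, 8699 in cluster 10, 2638 in cluster 8, 466 in cluster 11, 412 in cluster 17, 167.5 in cluster 3, 124 in cluster 9 and 109 in cluster 7. For these CXCR3 ligands cluster 5 lay in between, well under cluster 10. Of 9 measured CC chemokines of monocytes and macrophages, 3 were lower and none higher: Ccl7 (8.21-fold, 6.90 to 9.84), Ccl12 (6.25-fold, 4.94 to 8.02) and Ccl8 (4.13-fold, 2.52 to 7.28), all 3 ligands of receptors on monocytes and other leukocytes. Ccl8 was under 2-fold without cluster 11 (1.91-fold lower, 1.14 to 3.41) and did not count as lower with thinned cells or the higher minimum either. Ccl7 was at 51.45 CPM in cluster 5, 866 in cluster 11, 819.9 in cluster 8, 311 in cluster 10 and 173 in cluster 3. Among neutrophil attractants, Cxcl2 was at 1556 against 1436 CPM and Cxcl3 2.94-fold lower (2.23 to 3.95). Of 9 measured chemoattractant receptors, 1 was lower (Cx3cr1) and none higher, and the monocyte receptor gene Ccr2 was at 593 against 638 CPM.

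The second side of the cluster's profile, inflammation and low-oxygen genes, was mostly higher than in the pooled other cells, by small margins. Of 29 measured hypoxia and glycolysis genes none differed by 2-fold, yet 28 lay above a log2 ratio of 0 (median 0.33). The median over all 5092 measured genes was -0.12, and their share above 0 was not computed. Hk3, a hexokinase, was 1.81-fold higher (1.57 to 2.09), Ero1l, an endoplasmic reticulum oxidase, 1.57-fold (1.41 to 1.75), Bnip3, a mitophagy receptor, 1.54-fold (1.40 to 1.69) and the glucose transporter gene Slc2a1 1.51-fold (1.40 to 1.64). Of 19 measured NF-κB subunit and feedback genes none differed by 2-fold and 18 lay above 0 (median 0.36), with the manganese superoxide dismutase gene Sod2 at 1.497-fold (1.40 to 1.60). Of 12 measured cytokine genes Inhba was higher by 2-fold and none lower (median 0.45). Il1b, a main inflammatory cytokine, was at 7310.4 against 5675 CPM, and Il15 at 76.0 against 40.6 CPM (1.87-fold, 1.59 to 2.20). Of 6 measured secreted antiproteases and acute-phase genes Slpi was higher by 2-fold and none lower (median 0.73), and haptoglobin, Hp, was 1.73-fold higher (1.61 to 1.85). By cluster, the hypoxia list summed to 16087 CPM in cluster 7, 13826 in cluster 5 and 10151 to 12292.5 in clusters 3, 8, 10 and 11. It was lowest in clusters 17 (7492 CPM) and 9 (5372.5 CPM), so its level was not particular to cluster 5. The NF-κB list summed to 3983 CPM in cluster 5 and 2543 to 3574 CPM in the others.

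Prostaglandin and leukotriene genes, Ptgs2 (1.74-fold higher) among them, went in mixed directions. Of the 9 measured, Ptgs2 included, none was higher by 2-fold and 1, Ltc4s, was lower (median -0.31), while 3 lay above 0. Ptges, the inducible prostaglandin E synthase, had 13 UMIs in cluster 5, under the minimum for a measured gene, and Ptgs1, the constitutive cyclooxygenase, had 2. Whether Ptges went with Ptgs2 was therefore not assessed. The cytosolic synthase Ptges3 was at 70.9 against 95.4 CPM and the 5-lipoxygenase-activating protein gene Alox5ap at 1237 against 1287 CPM.

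Smox stood among arginine and polyamine genes of mixed direction. Of 10 measured, 1 was higher and 3 lower by 2-fold (median 0.08). Arg2 was the higher one, and Arg1, the cytosolic arginase, was 3.97-fold lower (3.615 to 4.36). Arg1 was at 183 CPM in cluster 5, 1187 in cluster 11, 1098 in cluster 3, 775 in cluster 8, 309 in cluster 7, 135 in cluster 10, 18.0 in cluster 17 and 14.8 in cluster 9. Srm, spermidine synthase, had 7 UMIs in cluster 5 (2.77 against 27.35 CPM; 9.87-fold lower, 4.76 to 24.7). Odc1, which makes putrescine, was at 147 against 181 CPM, and Nos2, inducible nitric oxide synthase, had 6 UMIs. Irg1, which makes itaconate, was 1.71-fold higher (1.52 to 1.925).

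**Figure D3:**
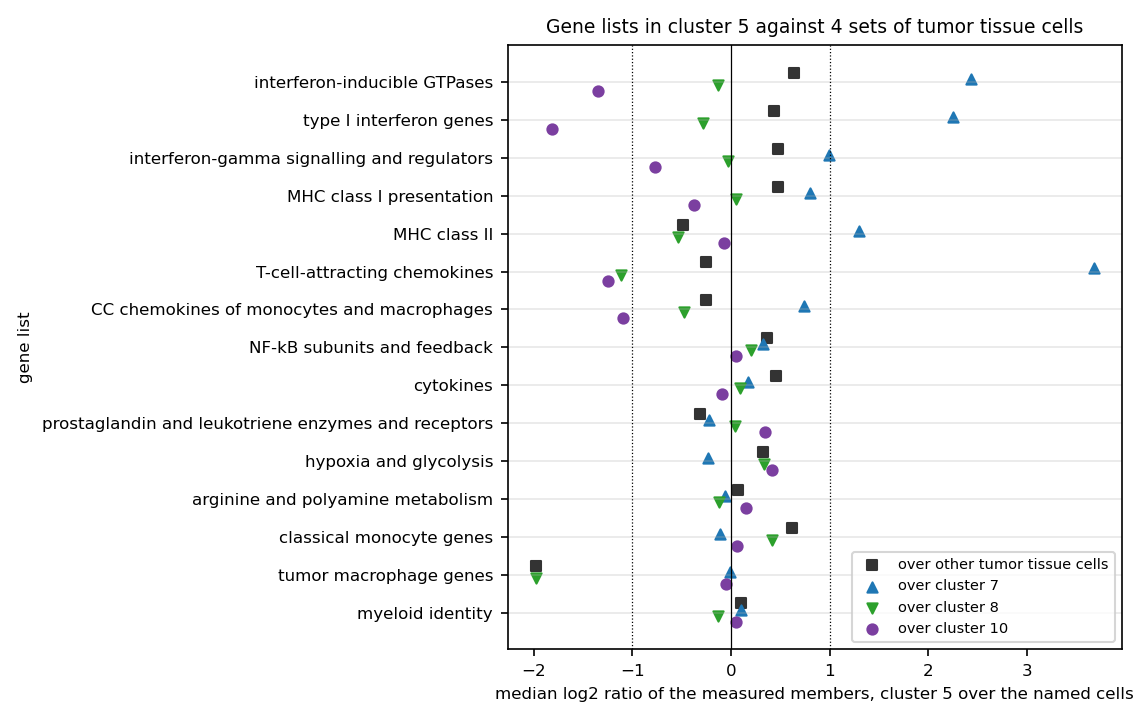
Median log2 ratio of the measured members of the gene lists, cluster 5 over all other tumor tissue cells (squares) and over clusters 7, 8 and 10 (other symbols), with dotted lines at 2-fold. The GTPase list lies at 2.43 over cluster 7 and at -1.35 over cluster 10, and the tumor macrophage list at -1.98 over cluster 8.

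Across the 5092 measured genes, cluster 5 was most like cluster 10 (Pearson's r of log2(CPM + 1) 0.96), cluster 8 (0.956) and cluster 7 (0.954), and least like cluster 17 (0.867). These correlations are across genes of 1 library, which are not independent replicates. The 3 nearest clusters were compared with it 1 at a time.

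Cluster 10 had the higher level for most listed interferon genes. Of 4691 measured genes, 109 (2.32%) were higher and 233 (4.97%) lower in cluster 5 by 2-fold or more. Of 11 GTPases 10 were lower (median log2 ratio -1.35, beside 0.14 over all genes), and of 25 type I interferon genes 18 were lower (median -1.81). Ifit1bl1, an Ifit family gene, was at 28.9 against 479 CPM (16.6-fold lower, 13.03 to 21.35) and Cxcl11 at 12.7 against 205.5 CPM (16.2-fold lower, 11.3 to 24.1). Gbp2 was 2.17-fold and Cxcl9 2.385-fold lower. Of 13 interferon-gamma signalling genes 3 were lower (median -0.77). In the other direction stood Hilpda (1.79-fold higher), Slpi (1.71-fold) and Ptgs2 (1.59-fold), and 26 of 29 hypoxia genes lay above 0 (median 0.42, 2 of them beyond 2-fold). Of 12 tumor macrophage and 10 classical monocyte genes none differed by 2-fold (medians -0.05 and 0.07). The largest ratios above cluster 10 were small in level. Ccl24, an eosinophil-attracting chemokine gene, was at 36.4 against 8.11 CPM (4.49-fold higher, 2.55 to 8.54; 6.04-fold without the top cells), with 42.4% of its UMIs in 1 cell. Slc25a33, a mitochondrial carrier gene, was 4.10-fold higher (2.265 to 8.05), Afg3l2, a mitochondrial protease gene, 4.03-fold (1.97 to 9.285) and the neutrophil attractant Cxcl1 4.38-fold (2.78 to 7.215), with 48.9% of its UMIs in 1 cell and 2.91-fold without the top cells. When mitochondrial, ribosomal-protein and haemoglobin genes were left out of the totals, 168 genes were higher and 223 lower.

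Against cluster 7, cluster 5 had the higher level for the listed GTPase and type I interferon genes that were measured. Of 4787 measured genes, 212 (4.43%) were higher and 31 (0.648%) lower in cluster 5. All 10 measured GTPases were higher (median log2 ratio 2.43, beside -0.06 over all genes), as were all 23 type I interferon genes (median 2.25) and 6 of 12 interferon-gamma signalling genes (median 0.99). Cxcl9 was 36.7-fold higher (24.5 to 57.6), Ifit3 29.9-fold (19.6 to 48.1) and Gbp2 10.7-fold (9.10 to 12.6). The chemokine gene Ccl5 was at 305 against 19.8 CPM. Of 6 MHC class II genes 4 were higher and of 18 class I presentation genes 8. The low side held inflammatory genes of cluster 7: Il23a, a subunit of interleukin 23, had 6 UMIs in cluster 5 and was 17.4-fold lower (7.69 to 48.45), the acute-phase gene Saa3 10.6-fold lower (4.26 to 34.15) and the neutrophil attractant Cxcl3 6.28-fold lower (4.68 to 8.56). Il23a and Saa3 did not count as lower with thinned cells or without the top cell of each side. Cxcl3 counted as lower under all 5 alternatives. Slpi was 1.54-fold and Ptgs2 1.31-fold lower. Of 29 hypoxia genes none differed by 2-fold (median -0.23), and the same held for 12 tumor macrophage genes (median -0.01).

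Cluster 8 was near cluster 5 in interferon genes and differed in macrophage genes and chemokines. Of 5074 measured genes, 66 (1.3%) were higher and 240 (4.73%) lower in cluster 5. Of 11 GTPases 1 was lower and none higher (median -0.13, beside -0.11 over all genes). Of 24 type I interferon genes 3 were lower and none higher (median -0.29). Of 13 tumor macrophage genes 10 were lower (median -1.98), with C1qa 12.7-fold lower (11.1 to 14.6). Ccl7 was 15.9-fold lower (13.4 to 19.15), Ccl12 11.75-fold (9.23 to 15.2), and Mmp12, macrophage elastase, 17.3-fold. Mmp13, a collagenase gene, had 1 UMI in cluster 5. Slpi was 4.94-fold higher (4.60 to 5.32), Tnfaip6 4.99-fold (3.33 to 7.71), Ace, angiotensin-converting enzyme, 6.14-fold (3.35 to 12.1) and Smox 2.42-fold. Of 7 antiprotease and acute-phase genes 4 were higher and 1 lower (median 1.06).

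In single cells, Gbp2, Slpi and Ptgs2 were each found across much of the cluster and Cxcl9 in fewer cells. For these shares each cell was thinned to 3000 UMIs, which left 299 of the 312 cells. Gbp2 was then found in 60.9% of cells (exact 95% interval 55.1% to 66.4%), Slpi in 57.5% (51.7% to 63.2%) and Ptgs2 in 46.15% (40.4% to 52.0%). Before thinning the shares were 76.3%, 70.5% and 58.3%. Cxcl9 was found in 13.7% (10.0% to 18.1%), or 16.99% unthinned, so that a minority of cells held its UMIs. At the same depth Gbp2 was in 88.6% of cells of cluster 10 and 10.8% of cluster 7, Cxcl9 in 21.2% and 1.08%, and Ptgs2 in 33.2% and 51.1%. Clusters 17 (21.8%, 11.8% to 35.0%) and 8 (17.6%, 13.1% to 22.8%) also lay above cluster 5 for Cxcl9, with intervals that overlapped its own. The lowest shares in any other cluster, given as a background that includes free RNA, were 0.508% for Cxcl9 in cluster 9, 8.08% for Gbp2 in cluster 3 and 10.2% for Ptgs2 in cluster 9, with median unthinned depths of 8774 and 8782 UMIs in clusters 3 and 9. Slpi was in 0 of 55 thinned cells of cluster 17, which allows a share of up to 5.45% at 3 counts.

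Genes of both kinds were found in the same cells about as often as their separate shares give. Gbp2 and Slpi were both found in 34.45% of thinned cells, beside 35.0% for the product of their shares, and Gbp2 and Ptgs2 in 28.1%, with a product of 28.1%. Gbp2 and Hilpda were found together in 23.75% of cells (product 23%) and Cxcl9 and Ptgs2 in 7.02% (product 6.33%). Cxcl9 and Gbp2 overlapped more, in 11.7% of cells beside 8.35%. Over the GTPase list, the median cell of cluster 5 held 4 UMIs (quartiles 2 and 7.5), against 0 in cluster 7, 4 in cluster 8 and 13 in cluster 10. Over the hypoxia list it held 39 UMIs (26 and 53), against 48.5 in cluster 7, 33 in cluster 8 and 28 in cluster 10. Across the 299 cells the sums of these lists had a Spearman rho of 0.04, a description of cells that share a library and a depth.

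**Figure D4:**
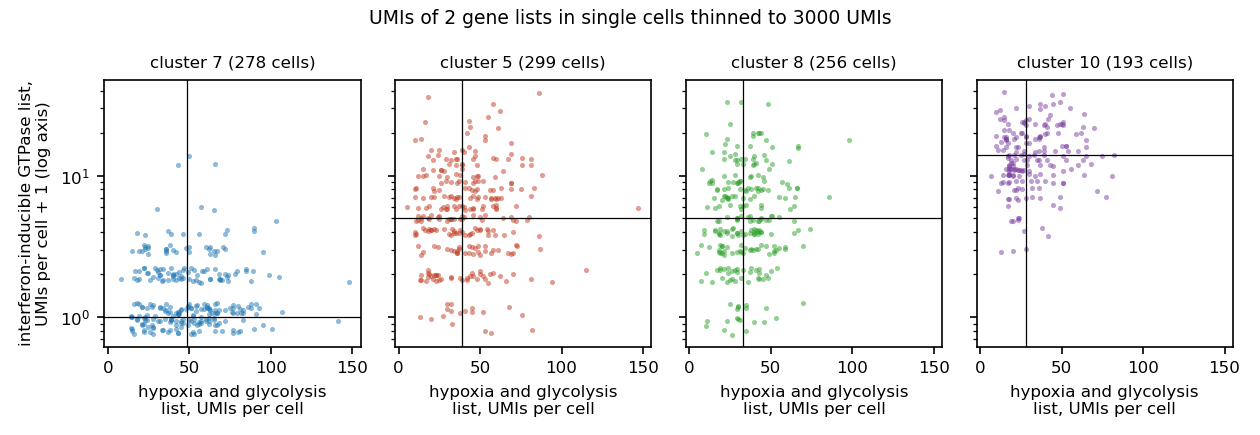
UMIs of the interferon-inducible GTPase list (vertical, UMIs + 1, log axis, with small vertical jitter) against the hypoxia and glycolysis list (horizontal) in single cells thinned to 3000 UMIs, 1 panel per cluster with lines at the medians. Cluster 5 (299 cells) has median sums of 4 and 39 UMIs, between cluster 7 (0 and 48.5) and cluster 10 (13 and 28).

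The cluster numbers equalled, in all 4527 cells of the metadata, a column named for an RNA neighbour graph, so the antibody tags are taken as a readout that the clustering did not use. Of 47 antibodies, 1 (2.13%) was higher and 2 (4.26%) lower by 1.5-fold or more in cluster 5 than in the other tumor tissue cells, in tag counts per 10000. Ly-6C, the surface antigen of classical monocytes, was at 2344 against 1492 (1.57-fold higher, 1.56 to 1.58). By cluster it was 2570 in cluster 9, 2389 in cluster 10, 2385 in cluster 7, 2344 in cluster 5, 1590.4 in cluster 8, 1365 in cluster 3, 1090.4 in cluster 17 and 793 in cluster 11. Clusters 5, 7, 9 and 10 were the highest 4, and their order depended on the measure. By the median cell it was 2538 in cluster 9, 2450.0 in cluster 5, 2387 in cluster 7 and 2349.9 in cluster 10. CD16-32, the tag for 2 Fc gamma receptors, was at 305 against 701 (2.30-fold lower, 2.26 to 2.33), and the same 4 clusters, with 289 to 305, were its lowest. CD18, the beta 2 integrin chain, was at 96.8 against 148 (1.53-fold lower). Each tag is given as a share of the total, so a larger Ly-6C share lowers the shares of the other tags. Ratios with Ly-6C left out of the total were not computed.

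Below the 1.5-fold mark, the MHC class II tag I-A-I-E was at 167 against 246 (1.48-fold lower) and CD36, a scavenger receptor, at 483 against 378 (1.28-fold higher). CD11b, the antigen used for enrichment, was at 2198.5 against 2192. Across the 47 tags cluster 5 was nearest to cluster 10 (r = 0.999), and none of the 47 differed between them by 1.5-fold. Cluster 7 (0.993) and cluster 9 (0.991) followed, with 1 antibody each beyond 1.5-fold, while cluster 8 (0.977) had 2. Cluster 8, the 2nd nearest by RNA, was thus farther by tags than clusters 7 and 9. The calls against all other cells leaned on cluster 11, which supplied 30.9% of their tag counts: without it 0 antibodies were higher and 1 was lower.

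**Figure D5:**
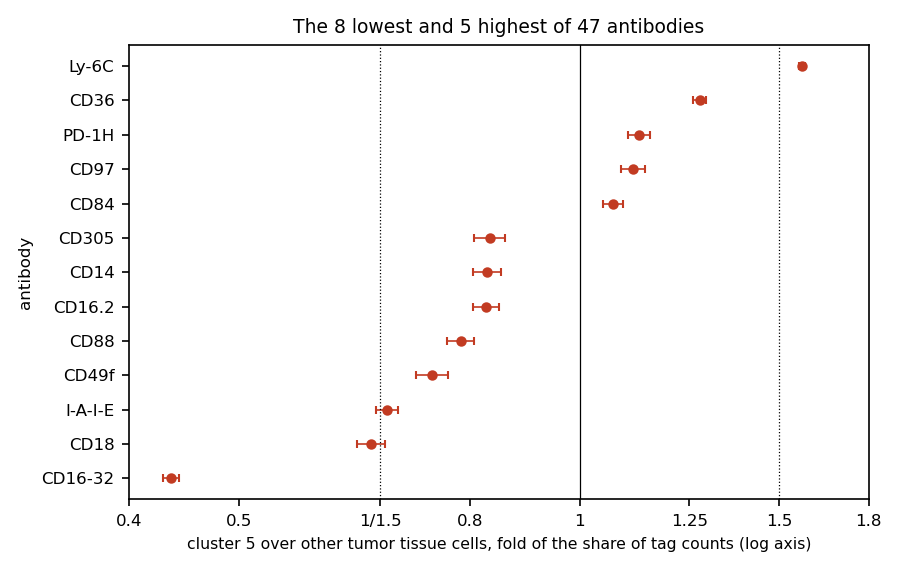
Ratio of antibody tag counts per 10000 in cluster 5 over the other tumor tissue cells (horizontal, log axis) for the 8 lowest and 5 highest of 47 antibodies, with 95% intervals of counting error and dotted lines at 1.5-fold. Ly-6C lies at 1.57-fold, above the upper line, and CD16-32 is 2.30-fold lower, far to the left.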

How the data were processed

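CITE-seq was run on CD11b+ enriched cells of 7 libraries, 1 per group, and the values here come from the tumor tissue library. The RNA counts and the antibody tag counts are deposited as whole-number counts per cell for 25127 genes and 47 antibodies, and the authors' log-normalized tables were not used. Per the submitters' processing notes the tools included Cell Ranger and the build was mm10. Versions, cell filters, doublet handling and clustering settings were not given in the sources used here. Mitochondrial UMIs, deposited as a fraction per cell, reached 9.86% at most, and the smallest cell had 854 UMIs. The deposited metadata name 4527 cells, of which 237 have no counts and were left out. Totals recomputed from both count tables equalled the deposited totals in all 4290 counted cells, and 2 barcodes occurred in more than 1 library. Libraries held 617821 to 20844058 UMIs.

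UMIs were summed over cluster 5 (2526531 UMIs) and over each set it was compared with, and scaled to counts per 1000000 (CPM). Genes with 30 UMIs or more in both sums together and 20 CPM in 1 of them were measured, and a ratio of 2-fold or more made a gene higher or lower. Antibody tags were scaled per 10000 and counted at 1.5-fold. Log2 ratios used CPM + 1. Intervals are exact conditional binomial for ratios and exact Clopper-Pearson for shares, at 95%, and cover counting error only. Clusters of at least 50 tumor tissue cells were compared. Since each group had 1 library, no test was made. No doublet caller was run, and an alternative dropped the deepest 2% of cells, none of them in cluster 5. Cells were thinned to 3000 UMIs with a fixed seed for shares of cells.

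Genes named are the 8 markers, the 12 highest and 12 lowest ratios past 2-fold against the other tumor tissue cells, the 4 highest and 4 lowest against each of the 3 nearest clusters, up to 4 measured members of each gene list by size of the ratio, and any member of the chemokine, prostaglandin, polyamine and GTPase lists. A few others (Il1b, Ccr2, Slc2a1, Ly6c2, Trem2, Apoe, Spp1, Id3, Prpf6 and genes of other cell types or of myeloid identity) are shown for their roles and were chosen after their values were seen. The cluster, its markers and the 36 gene lists were chosen with earlier results of these data known. Alternatives were cell means, thinning, other totals, equal weights, other minimums and another pseudo-count. Counting was tested on simulated data. Python 3.11.15, numpy 2.4.6, scipy 1.17.1, pandas 2.3.3 and matplotlib 3.10.9 were used. Promoter windows came from RefSeq on GRCm38.p6 and gene positions from GENCODE M21 on GRCm38.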

Additional observations from a re-analysis of the deposited data

How the results depend on the processing

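The share of cluster 5 among tumor tissue cells stayed between 15.7% and 16.6% under its alternatives. Against all other tumor tissue cells, the 15 higher genes became 23 with thinned cells, 7 with the other clusters weighted equally, 42 with no minimum, 8 with CPM + 10 and 9 without cluster 11. The 224 lower genes became 142 with means over cells, 1126 with no minimum, 71 with a minimum of 100 UMIs and 50 CPM, 91 with CPM + 10 and 116 without cluster 11. The setting without cluster 11 was chosen after seeing the data. Against cluster 10, the 109 higher genes became 202 with thinned cells and 168 with totals that left out mitochondrial, ribosomal-protein and haemoglobin genes. Against cluster 8, the 66 higher genes became 102 with thinned cells. Against cluster 7, the 31 lower genes became 76 with thinned cells and 49 with those reduced totals. The antibody counts of 1 higher and 2 lower became 0 and 1 with means over cells, without the cells with the most UMIs and without cluster 11. The causes of these shifts were not tested. The other 42 of 63 alternative values stayed within 1.5 times or within the interval of the value reported. For genes this compared how many counted, not which ones. With thinned cells 210 genes were lower than in all other tumor tissue cells, and 129 of them were among the 224. Without the cells with the most UMIs 182 were lower, all of them among the 224. Of 1815 ratios of named genes under alternatives, 1478 lay inside the reported interval. The higher minimum cannot change a ratio, so its 143 ratios lay inside by construction. Leaving out the cells with the most UMIs took none from cluster 5 and changed no count against clusters 7 and 10. Such values are counted among the 42 and the 1478 but are no check. For 8 of the 192 ratios (Ace, Ccl3, Ccl24, Cxcl1, Ifit1, Mmp14, Pla2g4a and Serpinb10, all against the other tumor tissue cells and all under 2-fold) some alternative lay on the other side of 1, 13 values in all, and no ratio past 2-fold did. Of the genes counted at 2-fold, 1 of 15 higher and 34 of 224 lower still counted, with the minimums met, under all 11 alternatives. The ratio itself stayed at 2-fold or more in 2 of 15 and 64 of 224. In the comparison with cluster 10, 35 of 109 higher and 154 of 233 lower genes still counted under all 5 alternatives. With cluster 8 these were 48 of 66 and 125 of 240, and with cluster 7 169 of 212 and 10 of 31. Depth limits genes with few UMIs, whose intervals are wide (Pmp22, Htra3, Il23a). No paired analysis was possible because each group had 1 library.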

Other observations

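Cluster 5 was seldom the highest cluster for any gene. It ranked first of the 8 tumor tissue clusters for 134 of 5092 measured genes (2.63%), 2nd for 593, 7th for 1020 and last for 265. Its largest leads over the next cluster were those of S100a8 (1.67-fold over cluster 8), S100a9 (1.42-fold over cluster 7) and Prpf6, a splicing factor gene (1.26-fold over cluster 11), and none of the 134 reached 2-fold. The S100a8 and S100a9 leads rested on few cells, as described above, and were not computed without the top cells. In thinned cells, S100a9 was found in 4.68% of cluster 5 and 5.40% of cluster 7. S100a8 was found in 6.69% of cluster 5 and 4.69% of cluster 8. Id3, an inhibitor of basic helix-loop-helix factors, was at 266 CPM in cluster 5 and 215 CPM in cluster 7. The next cluster was cluster 7 for 47 of the 134 genes and cluster 10 for 20.

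Its levels lay between those of clusters 7 and 10 for most genes that differed between these, a comparison chosen after the values were seen and given as a description. Of 4877 genes measured in clusters 7 and 10, 516 were higher in cluster 10 by 2-fold or more, and cluster 5 lay between them for 505 of these (97.9%). On a log2 scale running from 0 at cluster 7 to 1 at cluster 10, its median position over those genes was 0.545 (quartiles 0.402 and 0.645). Another 387 genes were higher in cluster 7, and cluster 5 lay between for 371 of them (95.9%), at a median position of 0.355 (0.228 and 0.502). It stood above both clusters for 1 gene of the first set and 12 of the second. Because these genes were picked for a wide gap between clusters 7 and 10, another related cluster could also lie between them for many. No other cluster was placed on this scale, so the shares cannot be called particular to cluster 5. Within cluster 5, MHC class II UMIs were uneven, with a median of 3 per thinned cell and 45 at the 90th percentile, and their sum had a Spearman rho of -0.26 with that of the classical monocyte genes over the 299 cells, which share a library.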
